A study of Mus musculus with 28 samples.

Results

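The leukaemic progenitors named L-GMP were compared with normal blood progenitors of mouse bone marrow, and 895 of 8422 genes tested had all 6 L-GMP arrays outside the range of the 16 normal arrays. Every L-GMP array was above every normal array for 479 genes, which is 5.69% of the genes tested. Every L-GMP array was below every normal array for 416 genes, which is 4.94%. These 895 genes are called separated here. They were chosen on the values of this comparison, so their changes between L-GMP and normal cells are given as a description and no test of them is used as support. The arrays named 12393 genes in all.

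L-GMP were labelled as leukaemic bone marrow cells sorted as lineage negative, sca-, kit+, FCR+ and CD34+ (6 arrays). The labels do not say how the leukaemia was made, and the series title names the fusion protein MLL-AF9. The normal groups were haematopoietic stem cell enriched cells, sorted as lineage negative, sca+ and kit+ (HSC, 5 arrays), and 3 groups of lineage negative, sca-, kit+ cells. Of these, common myeloid progenitors were FCR+ and CD34low (CMP, 4 arrays), granulocyte-macrophage progenitors were FCR+ and CD34high (GMP, 4 arrays), and megakaryocyte-erythroid progenitors were FCR- and CD34- (MEP, 3 arrays). L-GMP were set against the mean of the 4 normal group means, each group with equal weight. A second experiment held GMP expressing green fluorescent protein (GFP, 3 arrays) or MLL-AF9 (3 arrays), and it shares no array with the first. Per the series' design text the experiments cannot be compared in level, since amplification took place on separate days, and each was analysed on its own. Strain, age and sex were not given in the sources used here, and nothing in the labels says that replicates came from separate animals or leukaemias, so a p-value here reflects only sample-to-sample spread, possibly technical.

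MLL, also called KMT2A, is a histone methyltransferase that keeps HOX genes active in early blood cells, and in leukaemia its front portion is fused to partners such as AF9 that recruit the transcription elongation machinery. HOX proteins bind DNA together with the cofactors MEIS and PBX, and their genes are normally high in stem cells and fall as progenitors commit. GMP give rise to granulocytes, monocytes and macrophages, whose granule proteins, adhesion molecules and chemokine receptors appear step by step during maturation.

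Values are Affymetrix probe set intensities, scaled to a common trimmed mean and taken to log2, with a floor at 38.7 units (5.27 on the log2 scale) below which values carry no order. All levels and changes below are on this log2 scale, where 1 unit is 2-fold, and errors are the SD over arrays for levels and the standard error (SE) of the limma fit for changes. Replicates of a group correlated at between 0.937 and 0.984 across genes. Sort and lineage markers were as follows. Kit, a sort marker of every group, averaged 8.24 ± 0.20 in L-GMP (SD, n = 6) and between 8.72 and 9.69 in the normal groups. Elane, the neutrophil elastase of granule precursors, averaged 12.60 ± 0.24 in GMP (SD, n = 4) and 12.36 ± 0.38 in L-GMP (SD, n = 6). In HSC it was 7.07 ± 1.64 (SD, n = 5). The granule genes Mpo, Prtn3 and Ctsg averaged 12.92, 12.86 and 12.83 in GMP and 12.20, 12.59 and 12.29 in L-GMP. In HSC these 3 averaged 10.49, 11.45 and 8.87. Klf1, the erythroid master factor, averaged 10.46 ± 0.45 in MEP (SD, n = 3) and was at the floor in all HSC, GMP and L-GMP arrays. Procr, a stem cell surface protein, was 9.21 ± 0.21 in HSC (SD, n = 5) and at the floor in GMP, MEP and L-GMP. The message of the sort marker Cd34 went against the order of the labels in normal cells, at 9.57 ± 0.26 in CMP (SD, n = 4, labelled low) and 8.94 ± 0.14 in GMP (SD, n = 4, labelled high), and in L-GMP it was 8.08 ± 0.41 (SD, n = 6). Fcgr3, an Fc receptor of the sort, was 9.51 ± 0.35 in GMP and 9.65 ± 0.29 in L-GMP but only 5.47 ± 0.23 in CMP, near the floor. In sorted bulk samples such as these, fewer cells of a type and less RNA per cell cannot be told apart.

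The separated genes ranged from bare separation to differences of over 6 log2 units. The gap, defined as the distance between the nearest L-GMP and normal arrays, had a median of 0.248 for the genes above and 0.202 for the genes below. It reached at least 1 for 57 genes above and 44 below, and stayed under 0.1 for 133 and 120. The median change was 1.17 for the genes above and -0.99 for the genes below, against -0.0051 over all genes tested, and 275 and 206 of them differed at least 2-fold. In the fit over all genes by limma with Benjamini-Hochberg adjustment, 1978 genes (23.5%) were higher and 2181 (25.9%) lower at an adjusted p under 0.05. All separated genes were among them, a description only since the same values chose them, and 1499 higher and 1765 lower genes passed the test without being separated. Just inside the limit stood Erbb3, Map3k1 and Dpp3 above, with gaps of 0.00039, 0.0011 and 0.0014, and Mrrf, Extl3 and Scd2 below, with 0.0006, 0.0009 and 0.0017. Just outside were Plekhf1, 1700097N02Rik and Vsir, with gaps of -0.0011, -0.00062 and -0.000045, and Uba3, Acadl and Cct6a on the low side, so membership at this edge rests on differences far below the spread between arrays.

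**Figure D1:**
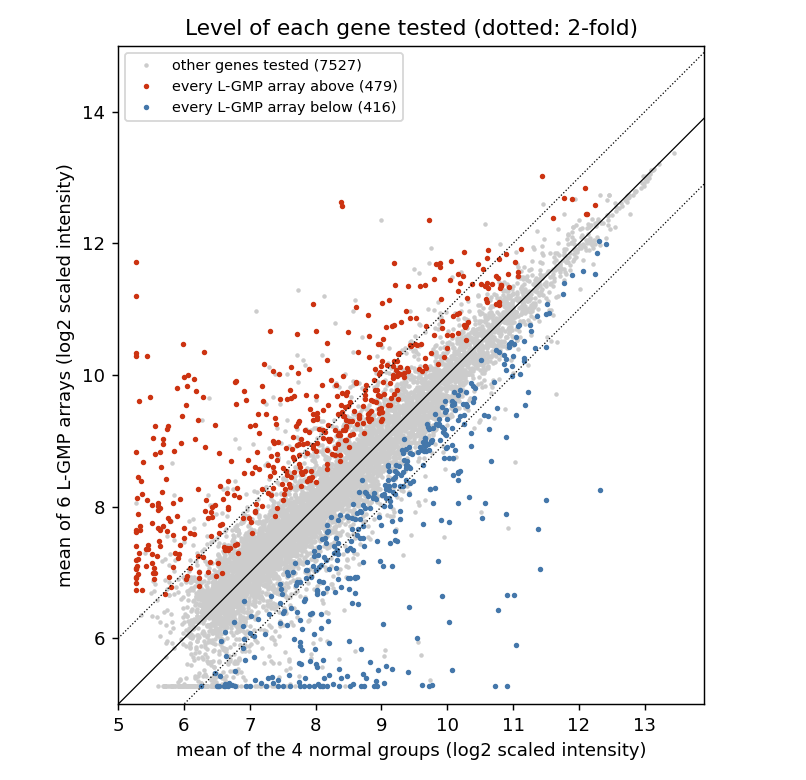
Mean log2 scaled intensity of each of 8422 genes in 6 L-GMP arrays (vertical) against the mean of the 4 normal group means (horizontal); red points are the 479 genes with every L-GMP array above and blue points the 416 with every L-GMP array below every normal array. The solid line marks equality and the dotted lines a 2-fold difference; 275 of the red and 206 of the blue genes lie beyond 2-fold.

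The widest gaps above the normal range belonged to genes that were at the floor in every normal array. Hpgd, which encodes the enzyme that inactivates prostaglandins, read between 11.63 and 11.88 in L-GMP with a median of 11.69, and it was at the floor on all 16 normal arrays. That is at least 87.3-fold, and no array of either side came within 6.35 units of the other. A further Hpgd probe set was also separated, with a change of 2.23. Igf2bp3, an RNA-binding protein of fetal and cancer cells and a known MLL fusion target, lay between 10.08 and 10.68 (median 10.29) in L-GMP and at the floor in all normal arrays, at least 33.5-fold. Penk, the precursor of enkephalin opioid peptides, spread more widely in L-GMP, from 9.35 to 11.17 (median 10.29), above a normal floor, at least 32.3-fold. In all 3 genes the L-GMP and normal values stood wholly apart, as the choice of the genes requires. Apoc2, the activator of lipoprotein lipase, was also at the floor in all normal arrays and lay between 8.21 and 9.30 in L-GMP, at least 11.8-fold. In all, 14 of the genes above were at the floor on the whole normal side.

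Mycn, a MYC family transcription factor, read between 10.24 and 12.09 (median 11.34) in L-GMP and at the floor in every normal array, at least 61.1-fold, but its probe sets disagreed. A second kept probe set did not exceed the floor on any of 6 L-GMP arrays or on 4 of the 16 normal arrays, and with the floor at the 10th percentile this second probe set had the higher mean and the change taken for Mycn was -2.95. The direction of Mycn therefore depends on the probe set.

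The promoters of the 3 genes with the widest gap in each direction that have an entry in the RefSeq promoter table (assembly GRCm38.p6) are shown, because these genes are the extremes of the separation. Each runs 5′ to 3′ on the strand of the gene, over 300 bases that end shortly after the annotated start. Capitals mark matches to a MEIS motif (TGACAG), an E-box (CACGTG), which is the MYC family sequence, or a TATA box (TATAAA). Hpgd lies at chr8:56294302-56294601 on the plus strand, Mycn at chr12:12941787-12942086 on the minus strand and Igf2bp3 at chr6:49214905-49215204 on the minus strand. Bcl11a lies at chr11:24080445-24080744 on the plus strand, Ifitm3 at chr7:141010695-141010994 on the minus strand and Ifitm1 at chr7:140967826-140968125 on the plus strand. Penk, Rab38 and Ccnd2 had no entry.
Hpgd: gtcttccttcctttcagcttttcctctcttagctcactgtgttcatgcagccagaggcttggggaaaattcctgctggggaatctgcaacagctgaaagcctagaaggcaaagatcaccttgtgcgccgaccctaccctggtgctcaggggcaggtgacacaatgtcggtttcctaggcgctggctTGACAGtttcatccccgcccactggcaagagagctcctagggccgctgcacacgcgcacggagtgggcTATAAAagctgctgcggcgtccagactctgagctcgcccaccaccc
Mycn: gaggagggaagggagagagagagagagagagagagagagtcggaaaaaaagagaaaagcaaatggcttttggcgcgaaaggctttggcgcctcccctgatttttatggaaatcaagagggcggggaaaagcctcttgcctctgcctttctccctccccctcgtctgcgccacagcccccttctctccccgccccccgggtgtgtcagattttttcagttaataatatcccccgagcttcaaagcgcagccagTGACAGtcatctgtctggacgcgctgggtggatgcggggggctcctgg
Igf2bp3: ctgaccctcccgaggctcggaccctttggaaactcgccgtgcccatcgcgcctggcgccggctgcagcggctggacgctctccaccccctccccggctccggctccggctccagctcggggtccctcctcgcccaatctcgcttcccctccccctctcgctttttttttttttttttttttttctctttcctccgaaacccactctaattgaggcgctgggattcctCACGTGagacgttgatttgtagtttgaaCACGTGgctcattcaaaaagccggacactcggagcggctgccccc
Bcl11a: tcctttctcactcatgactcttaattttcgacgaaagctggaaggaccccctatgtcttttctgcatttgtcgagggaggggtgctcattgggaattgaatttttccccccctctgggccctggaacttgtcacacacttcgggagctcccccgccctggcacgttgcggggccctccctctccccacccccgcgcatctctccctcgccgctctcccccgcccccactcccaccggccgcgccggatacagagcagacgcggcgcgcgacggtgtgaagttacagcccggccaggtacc
Ifitm3: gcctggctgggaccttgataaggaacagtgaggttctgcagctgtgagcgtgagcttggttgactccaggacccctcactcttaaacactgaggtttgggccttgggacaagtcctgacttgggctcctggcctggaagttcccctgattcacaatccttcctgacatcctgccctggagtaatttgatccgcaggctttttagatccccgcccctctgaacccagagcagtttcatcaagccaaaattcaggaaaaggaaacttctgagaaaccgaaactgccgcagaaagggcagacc
Ifitm1: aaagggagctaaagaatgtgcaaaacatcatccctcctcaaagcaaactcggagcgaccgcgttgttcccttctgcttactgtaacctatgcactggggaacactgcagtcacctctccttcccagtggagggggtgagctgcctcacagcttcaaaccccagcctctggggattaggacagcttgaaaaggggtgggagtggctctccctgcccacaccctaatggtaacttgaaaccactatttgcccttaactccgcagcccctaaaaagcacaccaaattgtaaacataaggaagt
The Hpgd promoter held a MEIS motif and a TATA box, the Mycn promoter a MEIS motif and the Igf2bp3 promoter 2 E-boxes. The 3 promoters of the lower genes held none of the 7 motifs searched. A match is a description of the letters in this window and not a binding site.

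Other genes of the widest gaps were measurable in some normal cells. Sgip1, an endocytosis adaptor, and Tctex1d1, a dynein light chain family member, are neighbouring genes. Sgip1 lay between 9.43 and 10 in L-GMP and reached at most 6.03 in normal cells, a change of 4.28 (SE 0.095). Tctex1d1 lay between 9.41 and 9.98 in L-GMP, averaged 6.12 in GMP and was at the floor in the other normal groups, a change of 4.18 (SE 0.074). Slpi, the secreted inhibitor of neutrophil serine proteases, was measured in every normal group and still stood apart. It averaged 7.71 in HSC, 8.26 in CMP, 9.85 in GMP and 7.75 in MEP against 12.63 ± 0.13 in L-GMP (SD, n = 6), a change of 4.23 (SE 0.11). Prg3, an eosinophil granule proteoglycan, was at the floor on 14 of 16 normal arrays, read 5.67 and 7.49 on GMP arrays 3 and 4, and lay between 9.92 and 10.48 in L-GMP. Gdpd3, Aldh3b1, an aldehyde dehydrogenase, and Dmc1, the meiotic recombinase, were higher by 3.94 (SE 0.077), 3.30 (SE 0.13) and 2.85 (SE 0.098).

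**Figure D2:**
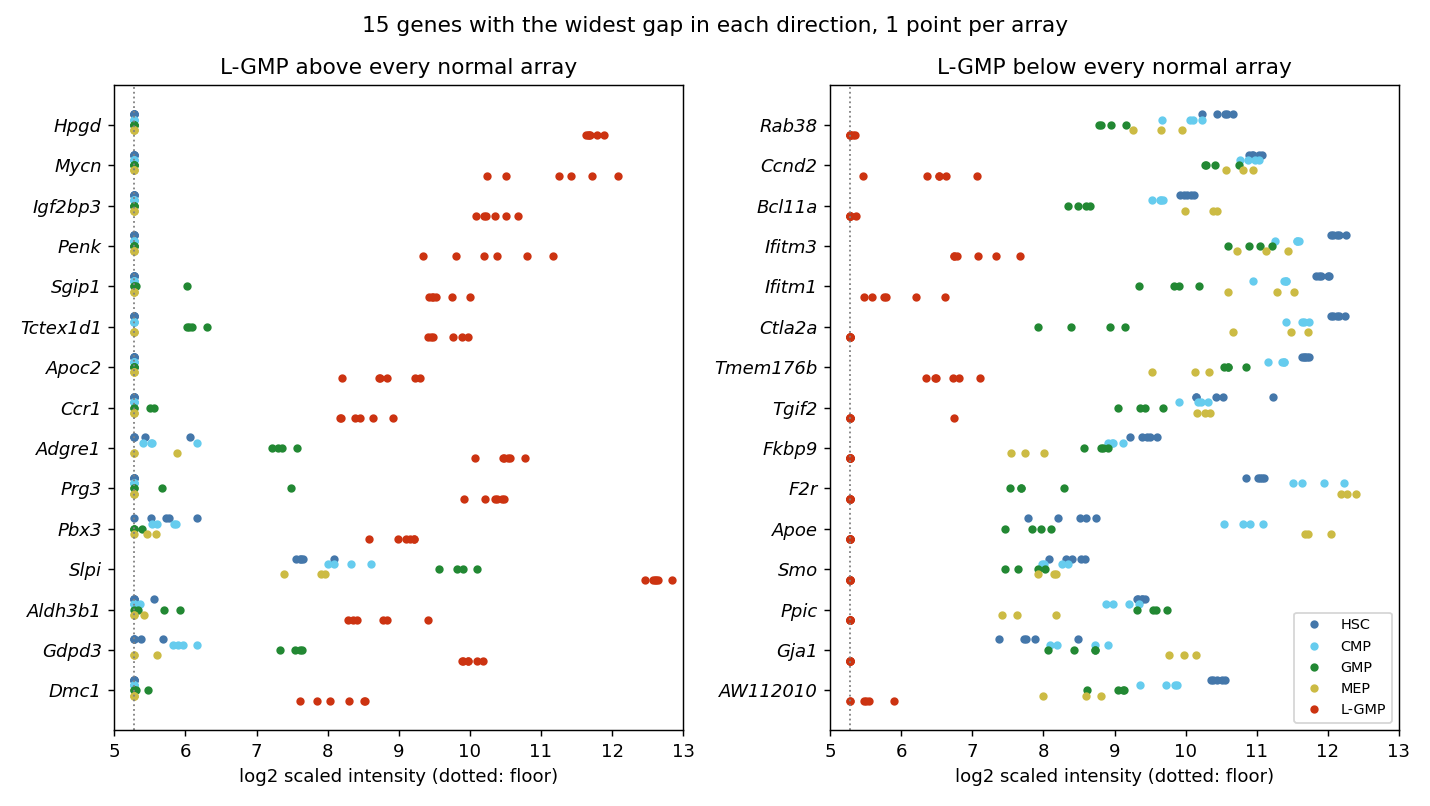
Log2 scaled intensity on each array (horizontal) for the 15 genes with the widest gap above (left) and below (right) the normal range, 1 point per array coloured by group, with the floor dotted. By the choice of the genes, all 6 L-GMP points lie apart from the 16 normal points in every line. Hpgd, Mycn, Igf2bp3, Penk and Apoc2 are at the floor in all normal arrays.

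Below the normal range, the widest gap was that of Rab38, a small GTPase of vesicle traffic. It lay between 8.78 and 10.67 in normal cells with HSC highest, and in L-GMP it was at the floor on 4 arrays and at most 5.35, a change of -4.47 (SE 0.093). Ccnd2, a D-type cyclin that drives entry into the cell cycle, lay between 10.27 and 11.07 in all normal groups and between 5.46 and 7.07 (median 6.53) in L-GMP, a change of -4.34 (SE 0.14). Bcl11a, a zinc finger factor of lymphoid cells and of globin switching, averaged 10.02 in HSC, 9.63 in CMP, 8.52 in GMP and 10.28 in MEP, and was at the floor on 5 of 6 L-GMP arrays. For these genes normal GMP were the lowest of the normal groups, and L-GMP lay well below them.

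Ifitm1 and Ifitm3, membrane proteins that restrict virus entry and are induced by interferon, came next. Ifitm3 lay between 10.60 and 12.25 in normal cells and between 6.74 and 7.68 in L-GMP, a change of -4.35 (SE 0.13). Ifitm1 lay between 9.35 and 12.01 in normal cells and between 5.47 and 6.61 in L-GMP, a change of -5.14 (SE 0.15), and the neighbouring Ifitm2 was separated with a smaller change of -0.90 (SE 0.078). In L-GMP 27 of the genes below never exceeded the floor. They include Ctla2a, an inhibitor of cathepsin proteases, at least 49.6-fold lower, F2r, the thrombin receptor of platelets, at least 44.0-fold, and Apoe, the lipid carrier, at least 21.7-fold. Ppic, a cyclophilin, Fkbp9, a prolyl isomerase of the endoplasmic reticulum, Gja1, the gap junction protein connexin 43, and Smo, the transducer of Hedgehog signals, were at least 12.7-, 11.1-, 10.7- and 7.06-fold lower. The other kept probe sets of Fkbp9 and Smo changed by only -0.27 and -0.82 and were not separated. Tmem176b, Tgif2, a homeobox corepressor, and the interferon-inducible transcript AW112010 changed by -4.25 (SE 0.10), -4.55 (SE 0.19) and -3.90 (SE 0.11).

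Against the separate normal groups, which all share the same L-GMP arrays, the genes above had median changes of 1.12 against HSC, 1.10 against CMP, 0.772 against GMP and 1.51 against MEP. The genes below had -1.02, -1.05, -0.821 and -1.07. GMP had the highest mean of the normal groups, and so was nearest to L-GMP, for 296 of the 479 genes above (61.8%). GMP was also the highest normal group for 40.0% of all 4162 genes with a positive change, where the highest need not be the nearest. For 220 of the 416 genes below (52.9%) GMP had the lowest normal mean and was nearest. It was the lowest for 43.7% of the 4260 genes with a negative change. HSC was nearest for 100 and 113, MEP for 43 and 71, and CMP for 40 and 12.

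The normal groups differed among themselves for some of these genes and hardly for others. Their 4 means lay within 0.5 of each other for 203 of the genes above (42.4%) and 181 below (43.5%), against 52.5% of all genes. Abi1, an actin regulator, averaged between 8.79 and 8.83 in the normal groups and 9.42 ± 0.20 in L-GMP (SD, n = 6). Elp3, a subunit of the Elongator complex that modifies transfer RNA, averaged between 9.39 and 9.46 in the normal groups and 8.91 ± 0.10 in L-GMP (SD, n = 6). At the other extreme, the normal means spanned at least 2 units for 49 genes above and 38 below. Hp, the haemoglobin scavenger haptoglobin of granulocytes, averaged 6.90 in MEP and 11.31 in GMP and 12.56 ± 0.092 in L-GMP (SD, n = 6). Gcnt2, a glycan branching enzyme, averaged 10.08 in HSC and 5.92 in GMP and was at the floor in L-GMP. For Hp and Gcnt2 normal GMP were the group nearest to L-GMP.

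Of the 32 gene lists examined, the HOX genes and their cofactors are the set MLL fusions are best known for. Of 15 tested, 2 were separated above (13.3%, against 5.69% of all genes) and 0 below, and 9 were higher at an adjusted p under 0.05 by limma, against 23.5% of all genes. Pbx3, a PBX cofactor, was between 5.27 and 6.16 in normal cells and between 8.58 and 9.22 (median 9.13) in L-GMP, a change of 3.51 (SE 0.11). Hoxa10 averaged 7.57 ± 0.14 in HSC (SD, n = 5) and 5.72 in CMP, was at the floor in GMP and MEP, and lay between 8.44 and 9.44 (median 8.91) in L-GMP. By the rule that chose them, no L-GMP array overlapped the normal arrays for either gene. The better known family members were not separated, and HSC had similar or higher levels of several.

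Hoxa9 averaged 11.56 ± 0.35 in L-GMP (SD, n = 6) and 11.50 in HSC, and 9.55 in GMP. Hoxa5 lay between 9.76 and 10.83 in L-GMP and reached 9.93 in HSC. Hoxa7 lay between 7.94 and 8.62 in L-GMP, and 1 CMP array reached 8.35. For each of these genes the L-GMP range overlapped that of a normal group. Meis1, the MEIS cofactor, averaged 10.62 in HSC, 9.85 in CMP, 7.51 in GMP and 8.91 in MEP against 9.75 ± 0.17 in L-GMP (SD, n = 6). Its change against the normal mean was 0.53 (SE 0.14, adjusted p = 0.00314 by limma), it rested on GMP, and without the GMP arrays it was -0.041. Against the mean of the normal groups Hoxa5 rose by 2.21 (SE 0.22, adjusted p = 2.8e-08 by limma) and Hoxa9 by 1.36 (SE 0.15, adjusted p = 1.05e-07 by limma). Hoxb3, Hoxb4, Hoxa11, Hoxc6, Pbx2 and Meis3 did not pass the test, with changes between -0.15 and 0.39, although Pbx2 passed with its probe set of largest variance (0.468, adjusted p = 0.0397 by limma).

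**Figure D3:**
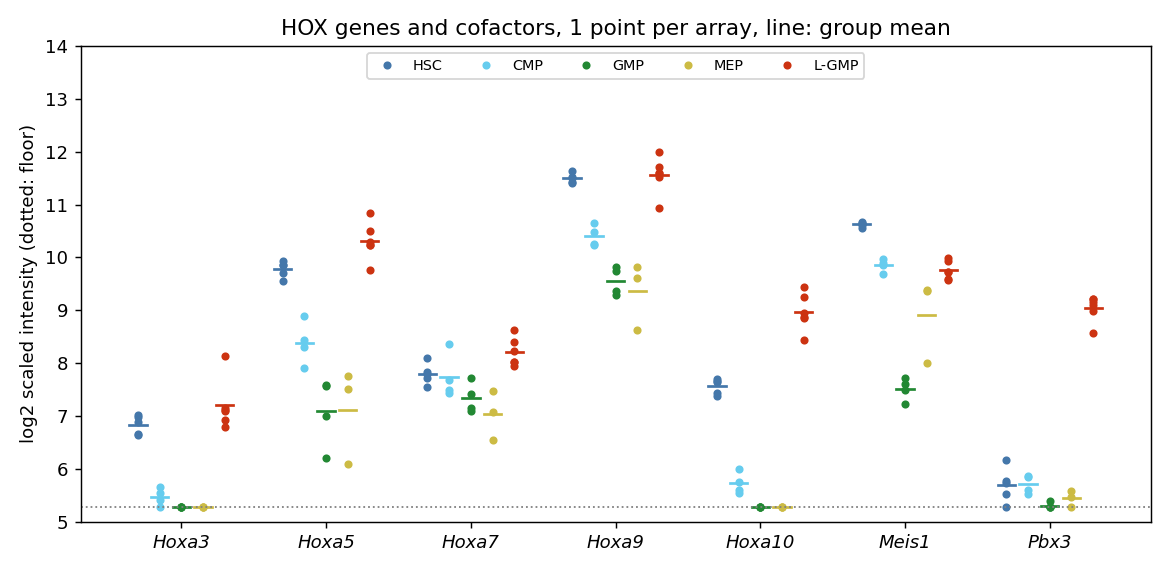
Log2 scaled intensity (vertical) of 5 HOX genes and 2 cofactors, with 1 point per array and a line at each group mean. Pbx3 and Hoxa10 in L-GMP lie above every normal array, while the HSC points of Hoxa3, Hoxa5 and Hoxa9 reach the L-GMP range and those of Meis1 lie above it.

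Among 20 other MLL fusion targets tested, 3 were separated above (15%, against 5.69% of all genes), Igf2bp3 among them, and 1 below (5%, near the 4.94% of all genes). Mylk, the myosin light chain kinase, averaged 8.51 in HSC and 9.90 ± 0.17 in L-GMP (SD, n = 6), a change of 3.12 (SE 0.16). Cpeb2, a regulator of translation, was near the floor in normal cells and lay between 6.58 and 7.53 in L-GMP. Sox4, a transcription factor of early progenitors, was separated below, with 7.64 to 8.97 in L-GMP and 9.02 to 11.06 in normal cells.

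Genes of monocytes and macrophages were the list with the most genes separated above, 11 of 28 tested (39.3%, against 5.69% of all genes), with 1 below. Adgre1, the macrophage surface antigen F4/80, lay between 10.07 and 10.77 (median 10.51) in L-GMP, averaged 7.36 in GMP and reached at most 6.16 in HSC, CMP and MEP, a change of 4.49 (SE 0.13). Ccr1, a receptor for inflammatory chemokines, was at the floor on 14 normal arrays and lay between 8.18 and 8.91 in L-GMP, a change of 3.15 (SE 0.083). Fcgr4 and Cd68, an Fc receptor and a lysosomal protein of macrophages, were higher by 2.25 (SE 0.098) and 2.21 (SE 0.11). The others were Itgam, Slc11a1, Ifi30, Ly86, Ctsb, Lgals3 and Ms4a6c. Over the 28 genes the mean level lay between 8.80 and 9.08 on L-GMP arrays, 8.46 and 8.56 in GMP, 8.02 and 8.17 in CMP, 7.35 and 7.95 in HSC, and 7.08 and 7.62 in MEP. The gate was for lineage negative cells, and whether more mature cells contributed was not tested.

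The receptors and integrins that guide myeloid cells showed the largest share of all lists, 9 of 18 tested separated above (50.0%, against 5.69% of all genes) and 1 below. Itgb2, the common beta chain of the leukocyte integrins, averaged between 8.94 and 9.31 in the normal groups and 11.15 ± 0.12 in L-GMP (SD, n = 6), a change of 2.03 (SE 0.12). Its partner chain Itgam (CD11b) was at the floor on 15 of 16 normal arrays and lay between 6.49 and 7.95 in L-GMP, and the other partner Itgal (CD11a) was higher by 0.69 (SE 0.16). Cxcr4, the receptor that retains cells in marrow, lay between 8.56 and 9.59 in L-GMP and reached 8.31 in normal cells. Selplg, the ligand of P-selectin, was higher by 0.66 (SE 0.067), whereas Selp, P-selectin itself, was at the floor on 5 of 6 L-GMP arrays and changed by -2.16 (SE 0.13). Among cytokine and growth factor receptors 4 of 30 were above (13.3%, against 5.69% of all genes) and 0 below. Csf2ra, the specific chain of the GM-CSF receptor, averaged 10.60 in GMP and 11.44 ± 0.16 in L-GMP (SD, n = 6), and Csf2rb2 and the interferon receptor chain Ifnar2 were higher by 1.51 (SE 0.12) and 0.69 (SE 0.087). Epha7, an ephrin receptor, spread most, from 7.23 to 10.18 in L-GMP against at most 6.34 in normal cells.

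Granule genes were separated above in 2 of 15 in each of the 2 lists (13.3%, against 5.69% of all genes) and below in 0. The primary granule genes above were Hp and the transcription factor Gfi1, which averaged 10.28 in GMP and 10.60 ± 0.079 in L-GMP (SD, n = 6). Over the 15 primary granule genes, however, the mean level was lower in L-GMP, between 10.94 and 11.33, than in GMP, between 11.52 and 11.83. The secondary granule and neutrophil genes above were Stfa3, a cysteine protease inhibitor, and Ltb4r1, the leukotriene B4 receptor. Ltb4r1 averaged 9.30 in GMP and 10.68 ± 0.27 in L-GMP (SD, n = 6). Over the 15 genes of this list the mean level lay between 8.941 and 10.67 in L-GMP and overlapped GMP, between 8.015 and 9.342. The prostaglandin and leukotriene genes were split, 4 of 15 above (26.7%, against 5.69% of all genes) and 2 below (13.3%, against 4.94%). With Hpgd, the genes above were Ltb4r1, Alox5ap, the 5-lipoxygenase activating protein, at 0.80 (SE 0.088), and Ptgr1, a prostaglandin reductase, at 1.86 (SE 0.12). Below were receptors of prostaglandin E2, Ptger3 (at least 7.14-fold lower) and Ptger4 (-1.88, SE 0.12). The other kept Ptger3 probe set changed by only -0.188 (adjusted p = 0.554 by limma). Prg3 was the only separated gene of 8 eosinophil, basophil and mast cell genes (12.5%, against 5.69% of all genes above).

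**Figure D4:**
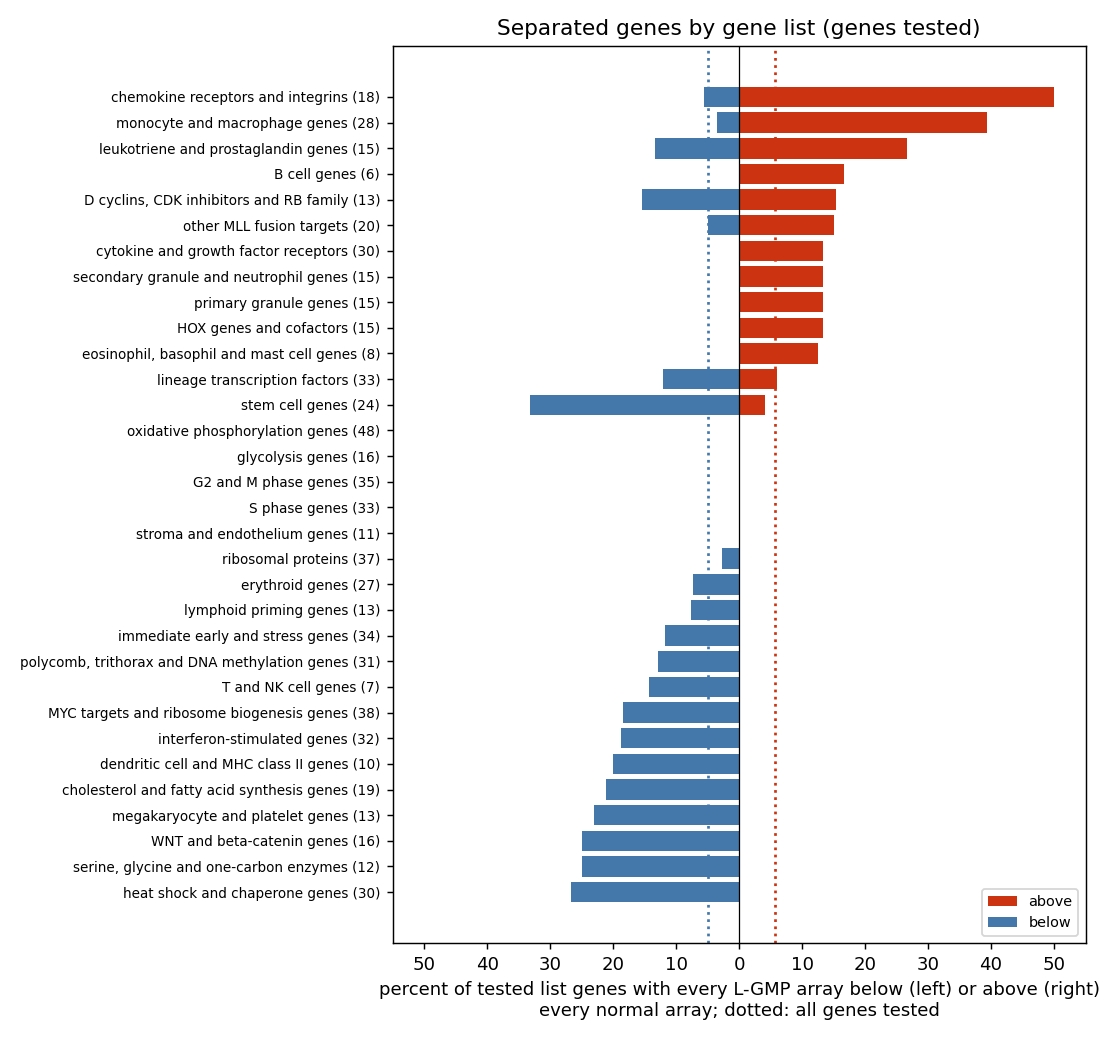
Percent of the tested genes of each of 32 gene lists with every L-GMP array above (red, right) or below (blue, left) every normal array, with the number tested in brackets. Dotted lines mark all genes tested (5.69% above, 4.94% below); chemokine receptors and integrins reach 50.0% above and stem cell genes 33.3% below.

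Stem cell genes lay the other way, 8 of 24 below (33.3%, against 4.94% of all genes) and 1 above, Mycn, whose direction depends on the probe set. Beside Ifitm1, Ifitm3, Ctla2a and its relative Ctla2b, they included Hlf, a stem cell transcription factor, which averaged 11.08 in HSC, 7.44 in GMP and 7.36 in MEP and was at most 5.94 in L-GMP. Tal1, the factor that founds the blood lineages, did not exceed the floor on any L-GMP array and between 7.15 and 9.92 in normal cells, at least 12.3-fold lower. Nrip1, a corepressor of nuclear receptors, changed by -3.42 (SE 0.14), and Cd27, a costimulatory receptor, lay between 6.16 and 10.24 in normal cells and at most at 5.53 in L-GMP. Over the 24 genes the mean level lay between 6.61 and 6.76 in L-GMP, 6.91 and 7.23 in GMP, and 9.07 and 9.30 in HSC. Of 33 lineage transcription factors, 2 were above (6.06%, near the 5.69% of all genes) and 4 below (12.1%, against 4.94%). Spi1, which encodes the myeloid factor PU.1, lay between 9.53 and 10.10 in L-GMP and between 6.54 and 9.33 in normal cells, and Gfi1 was the other gene above. Bcl11a, Tgif2, Tal1 and Hlf were the genes below.

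A few genes of other lineages were separated. Below were 3 of 13 megakaryocyte and platelet genes (23.1%, against 4.94% of all genes), F2r, Selp and Pf4, and 2 of the 10 genes listed for dendritic cells and MHC class II. Of 27 erythroid genes Icam4 and Uros were below (7.41%), a share near that of all genes. In each of these lists 0 were above. Pf4, a platelet chemokine, lay between 5.67 and 6.38 in L-GMP and 6.46 and 12.36 in normal cells. The antigen-presenting genes H2-Aa and H2-Eb1 were at the floor on 5 of 6 L-GMP arrays each and changed by -3.26 (SE 0.28) and -2.76 (SE 0.30). Cd79b, a chain of the B cell receptor complex, was above (1.10, SE 0.11), 1 of 6 B cell genes, and Cd27 was below among 7 T and NK cell genes. Of 13 lymphoid priming genes Bcl11a alone was separated, and of 11 stroma and endothelium genes 0 were separated.

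Among D cyclins, CDK inhibitors and the RB family, 2 of 13 were above and 2 below, with the D cyclins divided. Each share was 15.4%, against 5.69% of all genes above and 4.94% below. Ccnd3 lay between 8.16 and 9.02 in L-GMP and at most at 7.90 in normal cells (1.17, SE 0.12), while no L-GMP array had Ccnd1 above the floor, at least 5.04-fold lower, and Ccnd2 was low as given above. Cdkn2c, an inhibitor of CDK4 and CDK6, was higher by 1.84 (SE 0.20). MYC targets and ribosome biogenesis genes were below in 7 of 38 (18.4%, against 4.94% of all genes) and above in 0. Myc itself lay between 8.80 and 9.04 in L-GMP and between 9.49 and 10.36 in normal cells, -1.08 (SE 0.075). The nucleolar genes Gnl3, Npm1 and Fbl changed by -0.71 (SE 0.061), -0.47 (SE 0.053) and -0.70 (SE 0.072). WNT and beta-catenin genes were below in 4 of 16 (25%, against 4.94% of all genes). These were Ccnd1 and Myc, which are also counted in the lists just given, Ctnnb1 and Dvl1. Ctnnb1, beta-catenin, changed by only -0.43 (SE 0.046) with a tight L-GMP range of 11.03 to 11.14 under a normal minimum of 11.37. Dvl1, a WNT signal relay protein, changed by -0.79 (SE 0.079), but its other kept probe set changed by 0.023 (adjusted p = 0.847 by limma).

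Enzymes of serine and one-carbon metabolism were below in 3 of 12 (25%, against 4.94% of all genes). Phgdh, the entry enzyme of serine synthesis, lay between 10.99 and 11.84 across the normal arrays and between 7.29 and 8.95 (median 7.99) in L-GMP, -3.40 (SE 0.16), and Gcsh and Mthfd1 changed by -0.80 (SE 0.065) and -1.08 (SE 0.093). Of 19 cholesterol and fatty acid synthesis genes 4 were below (21.1%, against 4.94% of all genes). These were Elovl6, Fads1, Sqle and Scd2, at -2.55 (SE 0.14), -1.94 (SE 0.11), -1.59 (SE 0.13) and -0.77 (SE 0.091). Chromatin genes were below in 4 of 31 (12.9%, against 4.94% of all genes). Dnmt3b, a DNA methyltransferase that sets new marks, lay between 7.76 and 8.47 in L-GMP against 9.41 to 10.82, Cbx2, a polycomb reader, changed by -1.91 (SE 0.10), and Tet1 and Kdm1a were the others. Separated genes were 0 of 33 S phase, 35 G2 and M phase, 16 glycolysis and 48 oxidative phosphorylation genes, although 24 of the 35 G2 and M phase genes were higher at an adjusted p under 0.05 by limma, against 23.5% of all genes. Of 37 ribosomal proteins Rpl14 alone was separated, at -1.20 (SE 0.10).

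The lists of heat shock, immediate early and stress, and interferon genes held separated genes in 1 direction only, below. Of 30 heat shock and chaperone genes 8 were below (26.7%, against 4.94% of all genes) and 0 above. Hspa1b, a stress-induced HSP70, lay between 11.25 and 12.89 in normal cells and spread from 6.27 to 9.61 in L-GMP, -4.06 (SE 0.39), and Hspa1a changed by -4.35 (SE 0.50), while Hspa4 and Hspa9 changed by -1.48 (SE 0.22) and -0.85 (SE 0.096). The other kept Hspa4 probe set changed by 0.029 (adjusted p = 0.789 by limma). Of 34 immediate early and stress genes 4 were below (11.8%, against 4.94% of all genes), Hspa1b, Hspa1a, Myc and Hsph1. All 4 are also counted in other lists, Myc among the MYC targets and the rest among the heat shock genes. The mean level of the 34 genes lay between 6.90 and 7.51 in L-GMP and between 8.56 and 10.51 on 13 of the normal arrays. However, replicate 1 of HSC, CMP and GMP read 8.18, 7.34 and 7.14. Without these 3 arrays, 17 of the 34 genes were below the remaining normal arrays, as were 465 of all 8422 genes. The 3 arrays were picked for their low values in this list, so the rise from 4 to 17 is no support. The part of this difference between replicates in the result was not tested. Of 32 interferon-stimulated genes 6 were below (18.8%, against 4.94% of all genes) and 0 above. Gbp2 and Iigp1, GTPases that defend against intracellular pathogens, changed by -2.44 (SE 0.15) and -2.98 (SE 0.13), and Bst2, the tether of budding virus, by -0.83 (SE 0.091). The mean of this list lay between 7.18 and 7.38 in L-GMP, 7.51 and 7.81 in GMP, 7.78 and 8.06 in MEP, 7.995 and 8.25 in CMP, and 8.71 and 8.84 in HSC. L-GMP overlapped no normal group, while MEP overlapped GMP and CMP.

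Further probe sets of the separated genes mostly had the same sign, but many were not separated themselves. Of 147 genes above with a further kept probe set, 131 had all of them of the same sign, 70 had a further probe set separated the same way and 0 the opposite way, and for 4 another probe set passed the test in the opposite direction. Of 175 genes below these numbers were 153, 80, 0 and 4. With the probe set of largest variance standing for each gene, 435 of the 479 genes above and 359 of the 416 below were separated the same way. The 8 genes with opposed probe sets were Mycn, Ube3c, Ube2d3 and Adi1 above and Pim1, Dnpep, Zfp346 and Got2 below. In a table of gene order, 3912 pairs of tested protein-coding genes were direct neighbours, and in 20 both were separated above, in 22 both below and in 17 they were opposed. No count expected for unrelated neighbours was made, so these counts are a description only. The pairs above included Sgip1 with Tctex1d1, and Tyrobp with Hcst, which encode adaptors of activating immune receptors and were higher by 2.62 (SE 0.12) and 2.59 (SE 0.18). The pairs below included Hspa1a with Hspa1b, H2-Aa with H2-Eb1, Tmem176a with Tmem176b, and the Ifitm genes.

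Promoter entries of 300 bases were found for 379 of the 479 genes above, 336 of the 416 below and 6851 of the 8422 tested. The MEIS motif TGACAG, on either strand, was present in 26.4% of the promoters above, 16.4% of those below and 20.0% of all tested. The E-box CACGTG was present in 12.7% above, 19.0% below and 12.0% of all tested. A PBX-HOX composite site (TGATTNAT) was present in 1.85% and 1.49% against 1.63% of all tested, a C/EBP site (TTGCNNAA) in 13.2% and 10.1% against 10.3%, a PU.1 site (GAGGAAG) in 16.6% and 12.5% against 16.3%, a GATA site (AGATAAG) in 2.64% and 2.98% against 2.34%, and a TATA box (TATAAA) in 9.50% and 7.44% against 9.65%. The median GC content was 59.3% above, 61.0% below and 60.7% over all tested. Over all 27025 promoters of the table the MEIS motif was present in 21.6% and the E-box in 8.09%. No motif contains another, the motifs were chosen after the values were seen, and these shares are a description with no test.

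The arrays of transduced GMP were not used to choose the separated genes and ask whether the same genes respond when GMP express MLL-AF9. Most had changes of the opposite sign. Of 406 genes above in L-GMP and tested there, 309 (76.1%) were lower with MLL-AF9 than with GFP and 97 higher, with a median change of -0.196. Of 382 genes below in L-GMP, 280 (73.3%) were higher with MLL-AF9 and 102 lower, with a median of 0.149. Over all 7235 genes tested there 46.6% were lower and 53.4% higher, with a median of 0.016. The changes of the 788 separated genes in the 2 experiments had a Pearson r of -0.453, and of all 6865 genes tested in both -0.278, across genes that share the same probe sets and are not independent replicates. Without replicate 1 of GFP, the highest GFP array for each macrophage gene named below, the medians were -0.131 and 0.0508 and the shares 74.6% and 62.3%.

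Few of these changes passed a test with 3 arrays a group. By limma with Benjamini-Hochberg adjustment 1 gene was higher (0.0138%) and 1 lower (0.0138%) of 7235, and 0 of the separated genes were called either way. At an unadjusted p under 0.05, 91 of the genes above were lower and 7 higher with MLL-AF9, against 6.43% and 3.79% of all genes, and of the genes below 36 were higher and 22 lower. Replicate numbers paired the transduced arrays, with correlations of their deviations between 0.379 and 0.596 in 3 of 3 pairs. With the replicate as a block, 15 genes were higher (0.207%) and 111 lower (1.53%). Of these, 29 were genes above in L-GMP, all lower with MLL-AF9, and 8 were genes below, 2 higher and 6 lower. The count of 29 was 27, 1 and 44 without the pair 1, 2 or 3. Calls over all genes moved alike, to 112, 5 and 275, so both depended on pair 2. Of the genes below, 4, 0 and 22 were then called higher and 4, 0 and 13 lower.

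Chemokine receptor, phagosome and lysosome genes were among the 29. Ccr1 read 11.40, 9.36 and 9.63 with GFP and 8.35, 7.71 and 7.40 with MLL-AF9, a change of -2.31 (SE 0.54, adjusted p = 0.0159 by limma with the block, 0.382 without). Slc11a1, a metal transporter of phagosomes, read 9.52, 9.09 and 8.78 with GFP and 7.61, 7.11 and 7.10 with MLL-AF9, -1.85 (SE 0.23, adjusted p = 0.00333 by limma with the block, 0.135 without). For both genes all GFP arrays lay above all MLL-AF9 arrays. Cyp4f18, Cd300lf and Apoc2 changed by -2.36, -2.31 and -2.03, and GFP replicate 1 was the highest array for each. Ptpro, Ctsh, Olfm1, Cd68 and Adgre1 changed by between -1.91 and -1.22, and all passed with the block.

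Of the genes below in L-GMP, Sox4 read 7.72, 8.74 and 9.21 with GFP and 10.56, 11.25 and 10.81 with MLL-AF9, a rise of 2.32 (SE 0.38, adjusted p = 0.0133 by limma with the block, 0.251 without). The groups did not overlap, and Sox4 was thus higher with MLL-AF9 and lower in L-GMP. Phtf2 was the other gene that rose with the block (1.07). S100a6, S100a4 and S100a10, genes of the S100 family, were lower in both experiments, by -1.77, -1.27 and -0.75 with MLL-AF9. Tmem268, AW112010 and Hspb11 were lower in both as well. These are 6 of the 382 genes below that were tested, a share near the 1.53% of all genes called lower with the block. Most of the genes above in L-GMP are in no myeloid list. Outside 5 myeloid lists 294 of 389 genes above in L-GMP were lower with MLL-AF9 (median -0.184), and within them 15 of 17 were (median -0.695). Of the HOX genes and cofactors 9 were tested in the transduced experiment, none of them separated, and their median change was 0.0061. Hoxa9 and Meis1 rose with MLL-AF9 by 1.56 (adjusted p = 0.0362 by limma with the block, 0.382 without) and 2.82 (adjusted p = 0.00333 by limma with the block, 0.104 without), and Hoxa7 and Hoxc5 also passed with the block (1.40 and 0.94) and not without it (adjusted p = 0.135 and 0.251 by limma). Hoxa3, Hoxb4, Hoxb5, Pbx2 and Meis3 did not pass, with changes between -0.22 and 0.0061.

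**Figure D5:**
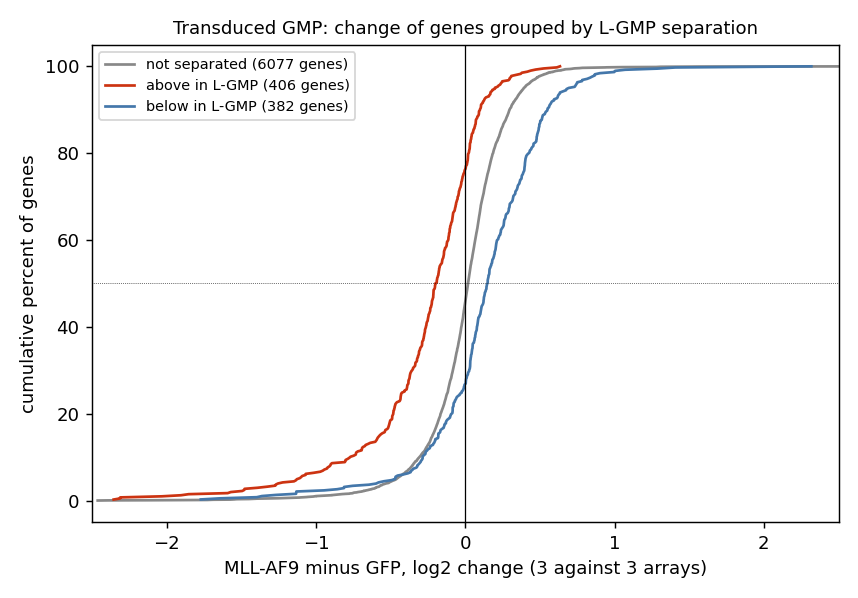
Cumulative percent of genes (vertical) against their log2 change between MLL-AF9 and GFP in transduced GMP (horizontal, 3 against 3 arrays), for genes above in L-GMP (406, red), below in L-GMP (382, blue) and not separated (grey). The red curve crosses 0 at 76.1% of its genes and the blue curve at 26.7%.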

How the data were processed

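Amplified, biotin-labelled RNA of sorted marrow cells was hybridised to Affymetrix arrays of 22690 probe sets, 22 in the sorted and 6 in the transduced experiment. The authors deposited linear intensities per probe set, computed with MAS5 per the submitters' processing notes. The scaling target is not given in the sources used here, and 187 to 413 values per array were 0 or negative, for a reason not given there.

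Within each experiment, control probe sets (64) were left out, arrays were scaled to the common mean after trimming 2% at each end (factors 0.923 to 1.12 in the sorted experiment), values under the 25th percentile were set to it, and log2 was taken. With common scaling, differences in total RNA per cell are lost. Probe sets above the experiment median on at least 3 arrays were kept, and where a gene had several, that of highest mean stood for it. By the platform annotation 20380 probe sets had 1 gene, 691 several and 1555 none, and only the first kind was tested. No genome mapping of probe sets was made. The log2 ratio of 3′ to 5′ control signal, a measure of RNA length, was 2.85 ± 0.079 in L-GMP (SD, 6 arrays) and 3.03 ± 0.18 in normal cells (SD, 16 arrays).

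L-GMP minus the mean of the 4 normal group means, and separately MLL-AF9 minus GFP, were fitted with limma 3.58.1 (lmFit and eBayes, R 4.3.3), two-sided, with Benjamini-Hochberg adjustment over all genes and a threshold of 0.05. The fit was tested on simulated data. The number of arrays limits the precision. Replicate numbers were checked for pairing by correlating deviations from group means. They paired the transduced arrays (3 of 3 over 0.1) while in the sorted experiment only 18 of 37 pairs were over 0.1 (from -0.493 to 0.528), and no block was used there. Numbers were taken from the sample titles.

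Named genes are the 15 widest gaps each way, members at the floor on a whole side, up to 4 members of each list by gap, the 3 nearest the limit on each side, the 5 widest and narrowest normal ranges, members called in the transduced experiment, the HOX genes and cofactors, and members with opposed probe sets. The other members of a list, and members of neighbouring pairs, were named after their values were seen. The separated genes and the 32 gene lists were chosen with earlier results of these data known. Alternatives were the scaling, floor, filter, probe set choice, weighting, replicate block, RNA length as a covariate, and leaving out each array or normal group. Promoter sequences came from RefSeq.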

Additional observations from a re-analysis of the deposited data

Results flagged for a closer look

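Among 130 sets of a gene and a group (46 named genes), 11 had an array standing apart from the rest of its group by Dixon's criterion, and chance gives about 1 in 20. In CMP replicate 4, Ifitm1 read 11 (the others 11.4), Ifitm3 11.3 (the others 11.6), Tmem176b 11.2 (the others 11.4) and Pbx2 8.11 (the others 7.57 to 7.61). These CMP values of Ifitm1, Ifitm3 and Tmem176b remain far above every L-GMP array. Adgre1 read 6.16 in CMP replicate 3 (the others 5.41 to 5.53), and Hoxb3 read 6.38 in CMP replicate 1 (the others 6.94 to 6.99). AW112010 read 8.61 in GMP replicate 4 (the others 9.06 to 9.13). In HSC, Hoxa11 read 5.57 in replicate 1 (the others 6.26 to 6.44) and Slpi read 8.09 in replicate 3 (the others 7.56 to 7.65). In L-GMP, Hoxa3 read 8.14 in replicate 6 (the others 6.79 to 7.14), and Pbx3 read 8.58 in replicate 4 (the others 8.99 to 9.22).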

How the results depend on the processing

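The number of separated genes depended on the normal groups and on the gap asked for. By the rule, leaving out arrays can only keep or add separated genes, and a wider gap can only remove them. Leaving out all GMP arrays gave 798 above and 663 below, and a gap of at least 1 left 57 and 44. Leaving out each array in turn gave between 480 and 535 above and between 417 and 493 below, with between 1843 and 1988 genes called higher and between 2035 and 2221 lower by limma. Without further scaling 403 were above and 364 below, of which 383 and 331 were among the 479 and 416. A replicate block in the sorted fit gave 1897 and 2113 calls, where 18 of 37 same-numbered pairs correlated over 0.1, so pairing was not borne out across these arrays, although replicate 1 of HSC, CMP and GMP shared low immediate early levels. In the transduced fit the replicate block moved the calls from 0 and 0 to 29 and 8, and leaving out each array in turn gave 0 and 0 without the block and medians between -0.233 and -0.131, and between 0.0508 and 0.205. The 121 named separated genes were chosen on these same values, so kept calls were largely set in advance and are no support. Of 4432 refits of these genes, 4427 kept the direction and the call. Those that did not were Mycn (-2.95 with the floor at the 10th percentile), Got2 (0.488), Ube3c (-0.456) and Zfp346 (0.419), each with the probe set of largest variance, and Cyp4f18, which no longer passed with the floor at the 50th percentile (0.264, adjusted p = 0.0961 by limma). The reversals of Mycn, Got2, Ube3c and Zfp346 come from taking another probe set, and the cause of the change of Cyp4f18 was not tested. Meis1, not a separated gene, was at -0.0407 without the GMP arrays (adjusted p = 0.852 by limma). Signal near the floor limits fold changes, which are lower bounds where a side is wholly at the floor. The arrays left out with the lowest immediate early levels (replicate 1 of HSC, CMP and GMP), and the left-out transduced pairs, were alternatives chosen after seeing the data.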
